A study of Sthenoteuthis oualaniensis with 24 samples.

Results

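Unigenes of the medium form (MF) of the purpleback flying squid, Sthenoteuthis oualaniensis (SA), that stood higher in mature than in immature SA in both the intestine and the stomach were described across the 4 MF groups. A unigene is a transcript sequence assembled from the reads without a genome. A unigene was a member when its mean level reached 20 FPKM in the mature intestine (MDI) and in the mature stomach (MDS), and when the mature mean was at least 4 times the immature mean in both tissues with 0.5 FPKM added to each. FPKM is the number of fragments per kilobase of a sequence, scaled by the mapped fragments of the library. Of 66837 unigenes in the MF, 228 met the rule (0.341%), which is 7.57% of the 3010 unigenes that reached 20 FPKM in both mature groups. The members were thus chosen by the levels of mature SA and by the ratios of mature to immature SA, and both are given as a description without a test.

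Tissues were taken from SA of the South China Sea, with 3 animals per stage of each form and no treatment named in the labels. Mature SA were those in maturity stages III to V and immature SA those in stages I and II. The groups used were mature MF intestine (MDI), mature MF stomach (MDS), immature MF intestine (MUI) and immature MF stomach (MUS), with 3 libraries each, and the dwarf form (DF) entered only as a count set beside the MF. The sources used here give neither sex nor age of the animals, and RNA came from whole tissue, in which fewer cells of a type and less RNA per cell cannot be told apart. The files pair no unigene with a gene name, so neither tissue could be checked against marker genes and members are given by ID.

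In squids, food is first broken down in a muscular stomach by enzymes that come from the digestive gland, and the intestine takes part in absorption and in carrying the remains out. During sexual maturation, an animal moves resources from growth into the gonads, and the gut supplies them. The comparison of mature and immature SA asks which transcripts of the gut differ between these stages.

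The 3 libraries of a group were close to each other. Among members, the median coefficient of variation between the libraries was 5.03% in MDI and 5.50% in MDS, against 4.14% and 4.24% for all unigenes of at least 20 FPKM. A coefficient above 20% was found for 7 members in MDI and 15 in MDS. From ratios of low values, the first library of each group had 0.850 to 0.871 times the depth of the second, and the third 1.00 to 1.01 times. No 2 libraries were identical. The study's methods name 3 animals per stage of each form and 3 parallel samples per group. Neither they nor the labels say whether each library is a separate animal, so the spread between libraries may be technical.

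The members took 3.34%, 3.33% and 3.32% of the summed FPKM in the libraries of MDI and 4.23%, 4.21% and 4.18% in those of MDS. In immature SA, they took 0.388%, 0.386% and 0.386% in MUI and 0.435%, 0.438% and 0.453% in MUS. The share was thus larger in each library of the stomach than in each library of the intestine at both stages. In immature SA, the summed FPKM of the members overlapped between the tissues, with 2770 to 2779 in MUI and 2665 to 2785 in MUS. There the total over all unigenes was 715241 to 718169 in MUI and 612873 to 615241 in MUS. In mature SA, the sum of the members was 24116 to 24231 in MDI and 26092 to 26380.5 in MDS. Without the 2 most abundant members, the shares were 2.52% to 2.54% in MDI, 3.46% to 3.49% in MDS, 0.268% to 0.277% in MUI and 0.332% to 0.341% in MUS. The order of the tissues was the same in these shares.

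The feature that most members had in common was the form of the ID. In the MF, an ID either names an assembly component and ends in _1 (25876 unigenes) or in _2 (28389 unigenes), or names a contig of a cluster and begins with CL (12572 unigenes). The sources used here do not say what these endings mean. Of the 228 members, 219 (96.1%) ended in _1, 3 ended in _2 and 6 were CL contigs. Unigenes ending in _1 were 38.7% of the unigenes of the MF. Among unigenes with at least 20 FPKM in both mature groups, the rule was met by 219 of 1136 ending in _1 (19.3%), by 3 of 567 ending in _2 (0.529%) and by 6 of 1307 CL contigs (0.459%). In the DF, where each of the 68627 unigenes has a CL name, the same rule was met by 16 of 3658 such unigenes (0.437%). The share in the MF was therefore close to that in the DF for CL contigs and for IDs ending in _2.

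**Figure D1:**
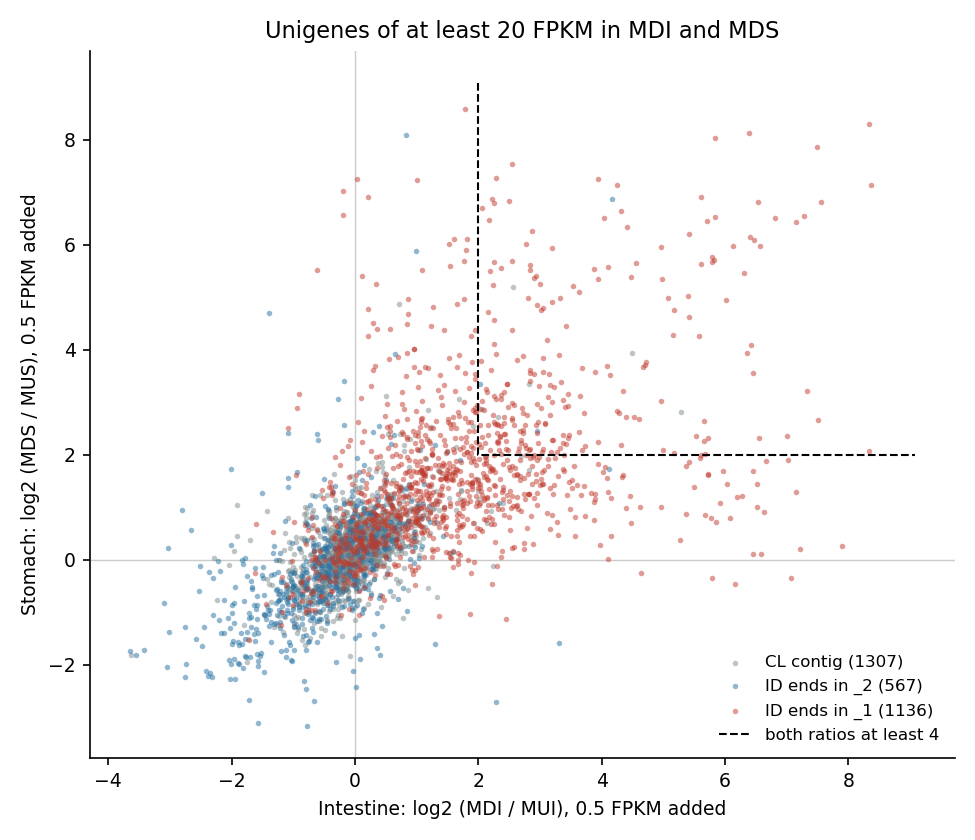
Ratio of mature to immature SA in the intestine (x axis, log2) and in the stomach (y axis, log2) for the 3010 MF unigenes of at least 20 FPKM in MDI and MDS, with 0.5 FPKM added to group means of 3 libraries. Points are coloured by class of ID and the dashed corner holds the 228 members, of which 219 have IDs ending in _1.

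The same split ran through the classes as a whole, members included. Over the unigenes that passed a filter at a mean of 0.5 FPKM, the median log2 ratio of mature to immature SA was 1.20 in the intestine and 1.07 in the stomach for IDs ending in _1. For IDs ending in _2 it was -1.18 and -1.04, and for CL contigs it was -0.01 and 0.09. Of the 917 other unigenes ending in _1 with at least 20 FPKM in both mature groups, 79.8% stood higher at maturity in both tissues, with a median log2 ratio of 1.07 in the intestine and 1.11 in the stomach. A ratio above 1 was thus common among abundant unigenes of that class, also outside the members. Unigenes ending in _1 took 36.2% to 36.3% of the summed FPKM in MDI and 33.6% in MDS, against 16.1% to 16.2% in MUI and 18.3% to 18.4% in MUS. CL contigs took 42.2% in MDI, 41.3% in MDS, 46.5% to 46.7% in MUI and 40.1% in MUS.

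**Figure D2:**
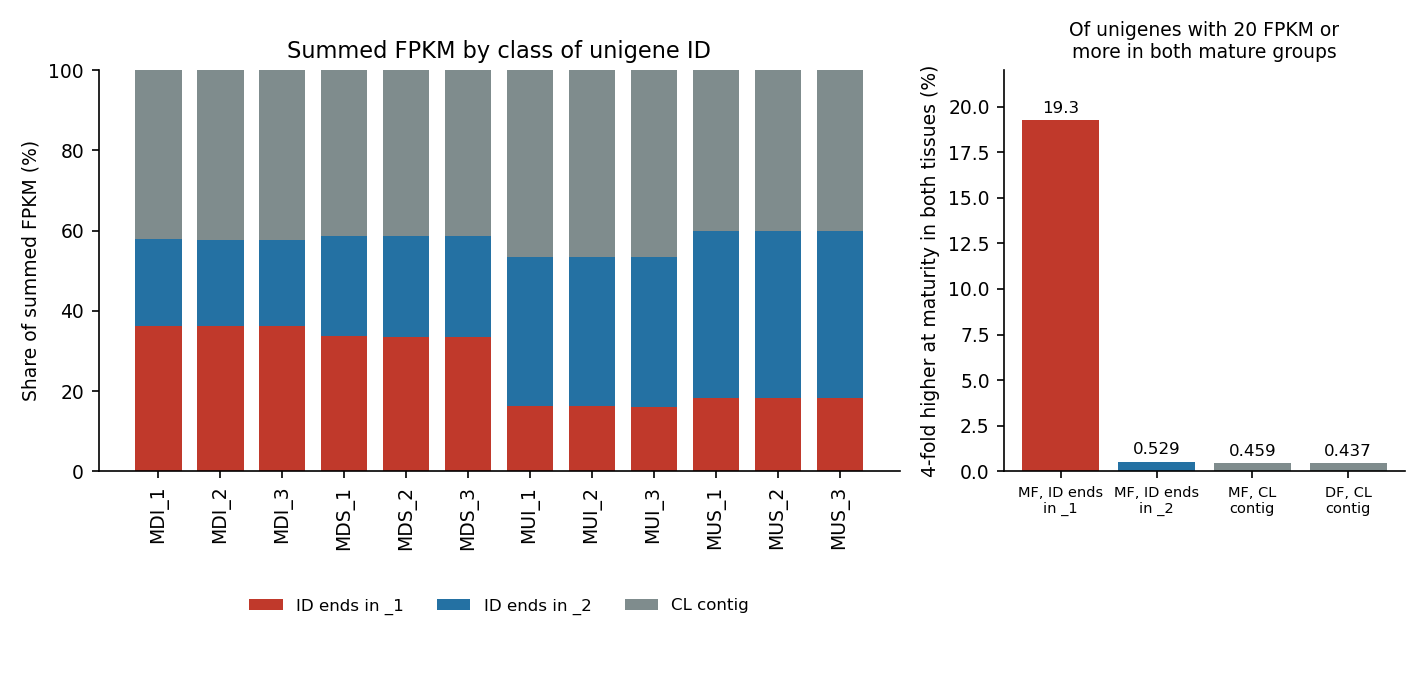
Left, share of summed FPKM (%) in each of the 12 MF libraries by class of unigene ID, where IDs ending in _1 took 33.6% to 36.3% in mature and 16.1% to 18.4% in immature libraries. Right, share (%) of unigenes with at least 20 FPKM in both mature groups that met the rule, which was 19.3% for MF IDs ending in _1 and 0.437% to 0.529% in the other classes.

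Low values in the immature libraries moved with the class of ID as well. Values above 0 and below 0.001 FPKM, as small as 1.1e-106, were listed in at least 1 library for 40.1% of the unigenes ending in _1, 42.3% of those ending in _2 and 1.78% of CL contigs, against 0.147% of the unigenes of the DF. Such values are no whole number of reads. For IDs ending in _1 they were found in immature libraries of 10124 unigenes and in mature libraries of 2343. For IDs ending in _2 the numbers were 4526 and 11589. Among the 228 members, 55 had such a value in at least 1 immature library and none in a mature library. In all 3 libraries of MUI it was the case for 14 members, and in all 3 of MUS for 19. Whether members share reads with a similar sequence of another ID was not tested, since the sequences were not used here. A level given below is therefore that of 1 assembled sequence and may not be that of the whole gene. The part of the class of ID in the ratios that define the members was not tested either.

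The exceptions to the ending were named after their values were seen. The members ending in _2 were comp56881_c0_seq1_2, comp42628_c0_seq1_2 and comp73294_c1_seq3_2. In comp42628_c0_seq1_2, the libraries gave 33.4, 32.7 and 31.4 FPKM in MDI and 72.7, 73.4 and 74.7 FPKM in MDS, against 1.87, 0.890 and 1.25 FPKM in MUI and 0, 0.194 and 0.192 FPKM in MUS. In comp73294_c1_seq3_2, they were 27.8, 27.1 and 28.1 FPKM in MDI and 28.04, 30.5 and 29.9 FPKM in MDS, against 6.25, 6.40 and 6.58 FPKM in MUI and 0.604, 5.72 and 1.03 FPKM in MUS. The libraries of mature and immature SA did not overlap in either unigene, which largely follows from the ratios that the rule asks for. The CL contigs were CL1Contig1002, CL1Contig1815, CL1Contig4512, CL1Contig5494, CL1Contig1474 and CL300Contig1, with medians of the group means of 70.3 FPKM in MDI and 158 FPKM in MDS, against 9.01 FPKM in MUI and 10.2 FPKM in MUS.

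Most members were of moderate abundance. Group means ranged from 20.04 to 3740.1 FPKM in MDI (median 52.7, quartiles 33.7 and 90.3) and from 20.05 to 4552 FPKM in MDS (median 46.1, quartiles 29.2 and 95.2). At least 100 FPKM was reached by 48 members in MDI and 55 in MDS. In immature SA, the median of the group means was 5.02 FPKM in MUI (quartiles 2.03 and 10.2) and 4.27 FPKM in MUS (quartiles 1.67 and 8.42). A mean of at least 20 FPKM was found for 21 members in MUI, 23 in MUS and 10 in both. Low levels in immature SA largely follow from the rule, which asks for a mature mean of at least 4 times the immature mean.

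The most abundant member by the mean of both mature groups was CL1Contig1002. Its libraries gave 2040.5, 2087 and 2058 FPKM in MDI and 4572, 4589 and 4495 FPKM in MDS. In immature SA they gave 42.3, 61.9 and 52.4 FPKM in MUI and 621, 638 and 679 FPKM in MUS. The stomach was higher at both stages, and it was 2.21 times the intestine in mature SA and 12.3 times in immature SA (here and below with 0.5 FPKM added to both means), so the ratio of mature to immature SA was larger in the intestine (39.1 against 7.04).

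The next, comp32161_c0_seq1_1, was a unigene of the intestine at both stages. Its libraries gave 3749, 3741 and 3730.4 FPKM in MDI and 767, 782 and 730 FPKM in MUI. In the stomach they gave 35.0, 36.8 and 32.4 FPKM in MDS and 7.21, 4.86 and 6.17 FPKM in MUS. The intestine was 106 times the stomach in mature SA and 116 times in immature SA, with a similar ratio of mature to immature SA in both tissues (4.92 and 5.36).

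The third, comp64309_c3_seq1_1, changed its order between the tissues. It had 334, 357 and 284 FPKM in MDI and 1086, 867 and 1014 FPKM in MDS, so each library of the mature stomach was above each library of the mature intestine. In immature SA it had 55.9, 41.5 and 68.5 FPKM in MUI and 3.98, 5.65 and 4.86 FPKM in MUS, with the intestine above.

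The fourth and the fifth were comp44499_c0_seq1_1 and comp62938_c1_seq1_1. The first had 665, 721 and 719 FPKM in MDI and 445, 481 and 462 FPKM in MDS, against 8.64, 10.4 and 9.51 FPKM in MUI and 7.36, 9.11 and 3.96 FPKM in MUS. It stood 70.0 times higher at maturity in the intestine and 63.4 times in the stomach, with 0.5 FPKM added. In comp62938_c1_seq1_1, the values were 292, 281 and 293 FPKM in MDI, 720, 709 and 711 FPKM in MDS, 14.6, 16.6 and 17.6 FPKM in MUI and 16.01, 16.7 and 10.5 FPKM in MUS. Here the libraries of the tissues overlapped in immature SA and the stomach was 2.47 times the intestine in mature SA.

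**Figure D3:**
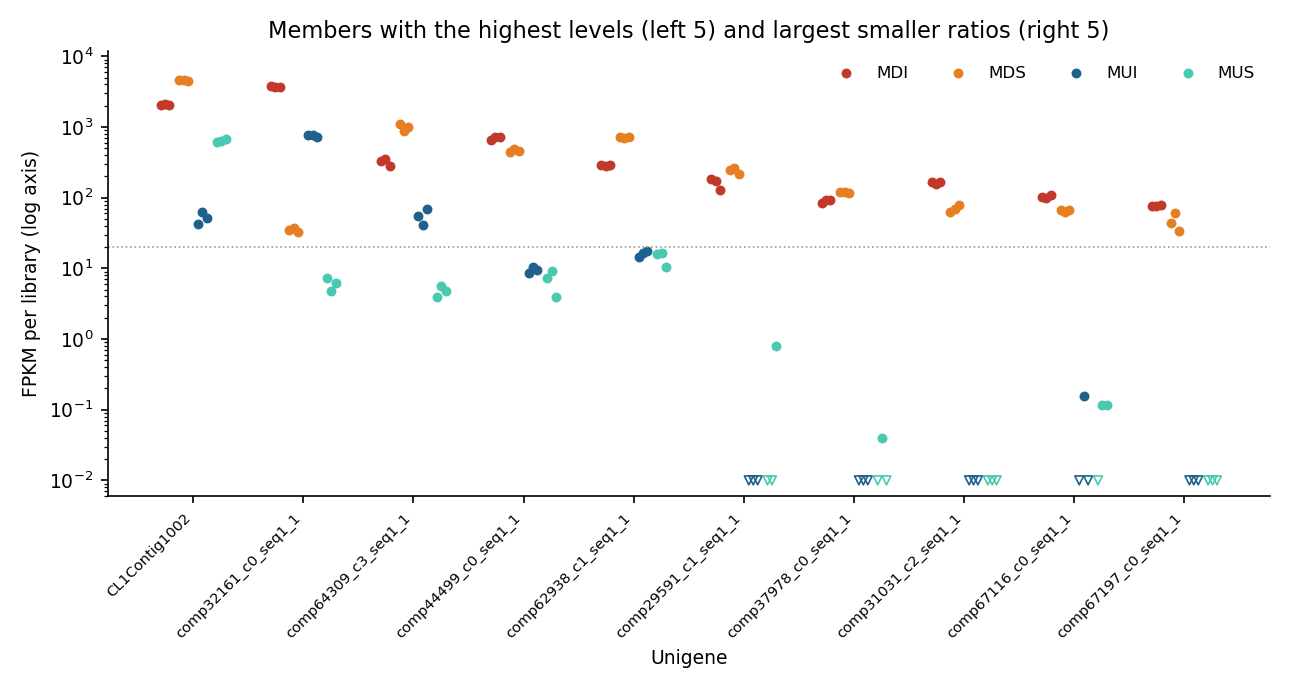
FPKM in each of the 12 MF libraries (log axis) for the 5 members with the highest mean level and the 5 with the largest smaller ratio of mature to immature SA. Each point is 1 library, open triangles mark values below 0.01 FPKM drawn at 0.01, and the dotted line marks the floor of 20 FPKM, which the mature libraries of these 10 members exceeded.

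The ratios of mature to immature SA spanned a wide range. With 0.5 FPKM added, the lowest were 4.05 in the intestine and 4.01 in the stomach, and the medians 8.27 and 9.18. The highest, 329 in the intestine of comp31031_c2_seq1_1 and 316 in the stomach of comp29591_c1_seq1_1, are set by the added 0.5 FPKM, since the immature means were lower than that. Over all unigenes tested, 9.65% were at least 4-fold higher in mature SA in the intestine and 8.41% in the stomach. Where the mature group reached 20 FPKM, it was 20.2% in the intestine and 16% in the stomach. Both ratios reached 5 for 151 members, 10 for 58 members and 50 for 19 members. In 52 members, the ratios of the tissues differed by less than 1.25-fold, and in 132 by less than 2-fold. In 47 members, they differed at least 4-fold.

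The members with the largest smaller ratio had almost no signal in immature SA, so their values are given in place of a ratio. In comp29591_c1_seq1_1, the libraries gave 184, 171 and 130 FPKM in MDI and 247, 267 and 213 FPKM in MDS. All immature libraries were below 0.001 FPKM except for 0.808 FPKM in the third library of MUS. In comp31031_c2_seq1_1, they gave 169, 157 and 166 FPKM in MDI and 62.1, 69.1 and 79.8 FPKM in MDS, with all 6 immature libraries below 0.001 FPKM. The same was seen in comp37978_c0_seq1_1, with 84.0 to 93.8 FPKM in MDI and 116 to 122 FPKM in MDS, where 1 library of MUS reached 0.0398 FPKM. In comp67116_c0_seq1_1, the mature values were 99.5 to 110 FPKM in MDI and 61.7 to 66.5 FPKM in MDS, and the highest immature value was 0.156 FPKM.

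The last of these, comp67197_c0_seq1_1, was 1 of 2 members listed at 0 in the 3 libraries of MUS, the other being comp67118_c0_seq1_1, which was named after its values were seen. The libraries of comp67197_c0_seq1_1 gave 75.4, 77.4 and 78.4 FPKM in MDI and 43.6, 61.6 and 33.6 FPKM in MDS. In MUI it was listed at 0 in 2 libraries and at 5.7e-66 FPKM in the third. Of the 228 members, 221 were above 0 in all 12 libraries, since values below that of a single read are also above 0. Mean levels below 0.5 FPKM were found for 32 members in MUI, 46 in MUS and 18 in both.

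Members at the edge of the rule had modest levels. The smallest ratio that met the rule was 4.01, in the stomach of comp51854_c0_seq1_1, which had means of 29.1 FPKM in MDS and 6.90 FPKM in MUS. Just outside was comp50916_c0_seq1_1, with a ratio of 3.98 in the stomach and means of 22.9 and 5.38 FPKM. The lowest level that met it was 20.04 FPKM, in MDI of CL300Contig1, and comp33351_c0_seq2_1 fell outside with 19.97 FPKM in MDI. When each of the 12 libraries was left out in turn, 185 of the 228 members met the rule each time, and each single omission kept 218 to 226 of them.

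The balance between tissues was not used by the rule, except that both mature groups had to reach 20 FPKM. In mature SA, the median log2 ratio of intestine to stomach over the members was 0.02 (quartiles -0.47 and 0.59), and 177 of 228 (77.6%) were within 2-fold. Of the 2782 other unigenes with at least 20 FPKM in both groups, 83.6% were within 2-fold, with a median of 0.15. Among the 917 of these that ended in _1, it was 80.7%, with a median of 0.09. Over all unigenes tested the median was 0.26, and it was -0.03 after median of ratios scaling and -0.09 after quantile normalization. The median of the members was then -0.32 and -0.23. It was below the median of all unigenes in each scaling, while its sign depended on the scaling. The medians of the other abundant unigenes, 0.15 and 0.09, were also below that of all unigenes in FPKM. They were not computed in the other scalings, so the lower balance cannot be read as particular to the members.

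With limma at a Benjamini-Hochberg adjusted p of 0.05 and a difference of at least 2-fold, 26 members (11.4%) were higher in the mature intestine and 25 (11%) in the mature stomach. The shares over all 46055 unigenes tested were 19.6% and 7.73%, and over the other unigenes with at least 20 FPKM in both groups 8.48% and 7.91%. Among the 917 of these that ended in _1, the shares were 9.16% and 10.1%, which lie close to those of the members. The split depended on the scaling, with 13 higher in the intestine and 46 in the stomach after median of ratios scaling, and 18 and 35 after quantile normalization. Of all unigenes tested, 14.3% and 11.6% were called after median of ratios scaling, and 13.3% and 12.9% after quantile normalization. Without overlap between the libraries, 91 members were higher in the intestine and 86 in the stomach, against 37.7% and 17.4% of all unigenes tested and 50.9% and 32.5% of the other unigenes with at least 20 FPKM in both groups.

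A difference of at least 4-fold was found for 4 members weighted to the intestine and 4 weighted to the stomach. How many other unigenes differ by as much was not computed, so these counts cannot be read as particular to the members. Besides comp32161_c0_seq1_1, the largest ratio was that of comp31564_c0_seq1_1, with 95.0, 100.5 and 107 FPKM in MDI and 22.8, 22.4 and 18.2 FPKM in MDS, a 4.68-fold difference. It was followed by comp64570_c2_seq1_1, which had 96.9, 94.0 and 95.9 FPKM in MDI and 21.3, 22.5 and 24.7 FPKM in MDS (4.12-fold). In both, the libraries of the tissues were far apart at maturity. In immature SA, the intestine was 2.50 times the stomach in comp31564_c0_seq1_1 and 1.37 times in comp64570_c2_seq1_1. Next were comp19722_c0_seq1_1 with a mean of 107 ± 5.30 FPKM (SD, n = 3) in MDI and 25.9 ± 6.60 FPKM in MDS, and comp58347_c1_seq1_1 with 191 ± 5.12 and 55.6 ± 1.29 FPKM.

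Members weighted to the stomach were led by CL1Contig1474, with 324, 319.6 and 322 FPKM in MDS and 28.1, 29.5 and 30.2 FPKM in MDI, a 10.8-fold difference. In immature SA, it had 9.26, 7.75 and 7.73 FPKM in MUS and 4.40, 4.56 and 4.62 FPKM in MUI, which is 1.74-fold. The weight to the stomach was thus larger in mature SA. In comp54146_c0_seq2_1, the values were 177, 182 and 177 FPKM in MDS and 21.0, 24.8 and 23.1 FPKM in MDI (7.63-fold). In comp56881_c0_seq1_2, they were 281, 277 and 273 FPKM in MDS and 59.3, 56.0 and 55.7 FPKM in MDI (4.82-fold), and the stomach was also 6.82 times the intestine in immature SA. In comp67151_c0_seq1_1, the means were 129 ± 3.02 FPKM (SD, n = 3) in MDS and 27.6 ± 0.245 FPKM in MDI. The tissue ratio hardly differed between the stages in comp60295_c0_seq1_1, where the stomach was 3.78 times the intestine in mature SA (666 ± 6.80 against 176 ± 2.71 FPKM) and 3.89 times in immature SA (126 ± 5.74 against 32.1 ± 0.779 FPKM).

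The members with the most equal levels in mature SA were comp45327_c0_seq2_1, comp7516_c0_seq1_1 and comp27916_c0_seq1_1. In comp45327_c0_seq2_1, the libraries gave 63.8, 75.8 and 67.4 FPKM in MDI and 69.8, 67.2 and 69.4 FPKM in MDS. In comp7516_c0_seq1_1, they gave 206, 211 and 190 FPKM in MDI and 220, 203 and 186 FPKM in MDS. The tissues overlapped in both. The equal means of comp27916_c0_seq1_1 (27.0 and 26.7 FPKM) rest on libraries of 20.9, 25.8 and 34.2 FPKM in MDI and 23.3, 44.1 and 12.8 FPKM in MDS, and its coefficient of variation in MDS (59.7%) was the highest of the members.

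In immature SA, the tissue balance was more variable. The SD of the log2 ratio of intestine to stomach over members was 1.87 in immature and 0.98 in mature SA, where the floor of 20 FPKM in both tissues limits it. The median in immature SA was 0.11, and 123 of 228 members were within 2-fold. Among the 207 members that passed the filter over both groups, 54 (26.1%) were at least 2-fold higher in MUI and 37 (17.9%) in MUS without overlap between libraries. Over all unigenes tested in the same way, 25.7% were higher in MUI and 11.1% in MUS, and of the other unigenes with at least 20 FPKM in both mature groups 19.5% and 10.5%. The direction found more often among members turned with the scaling. After quantile normalization, 36 members were higher in MUI and 60 in MUS, against 17.6% and 18.2% of all unigenes. After median of ratios scaling, the counts were 42 and 55 members, against 18.9% and 15.5% of all unigenes.

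Between the stages, the log2 ratio of intestine to stomach changed by less than 1 in 132 members. It moved by at least 1 toward the intestine in 39 members and toward the stomach in 57, and by at least 2 in 17 and 30. The share of all unigenes with such a change was not computed, so these counts cannot be read as particular to the members. The median change was -0.0075, and it was 0.13 after quantile normalization and -0.08 after median of ratios scaling. Its sign thus depended on the scaling. An example of a large change, named after its values were seen, is comp31152_c0_seq1_1, with 150.4, 165 and 166 FPKM in MDI and 143, 139 and 142 FPKM in MDS. In immature SA, it had 38.1, 33.4 and 28.4 FPKM in MUS, while all libraries of MUI were below 0.001 FPKM. Among the 207 members that passed the filter at both stages, the order of the tissues was exchanged without overlap in 30 (14.5%). The share was 7.05% of all unigenes that passed at both stages, 16% of the other unigenes with at least 20 FPKM in both mature groups and 22.6% of those of them that ended in _1. These changes are differences of the ratios that chose the members and were not tested. Over the 228 members, the ratio in mature SA had a Pearson correlation of 0.39 with that in immature SA (Spearman 0.39), as a description over unigenes that share the 12 libraries. Pearson's correlation was 0.43 over the 2782 other unigenes with at least 20 FPKM in both mature groups and 0.17 over the 917 of them that ended in _1. Of the 26 members higher in the mature intestine by limma, 17 were also higher in the immature intestine without overlap and 1 in the immature stomach, while in 8 the immature libraries overlapped. Of the 236 other abundant unigenes called the same way, 80.5% were higher in the immature intestine and 8.9% in the immature stomach. Of the 25 members higher in the mature stomach, 14 were also higher in the immature stomach and 7 in the immature intestine, against 77.3% and 15.9% of 220 other abundant unigenes. In 4 of the 25 members, the immature libraries overlapped. The other abundant unigenes failed at least 1 ratio of the rule, while members are held low in both immature groups. The rule thus weighs on this comparison, which was not tested. Over all unigenes tested in immature SA, 42.2% were higher in the intestine and 18.4% in the stomach without overlap, and over the abundant ones that were no members 59.4% and 27.9%.

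**Figure D4:**
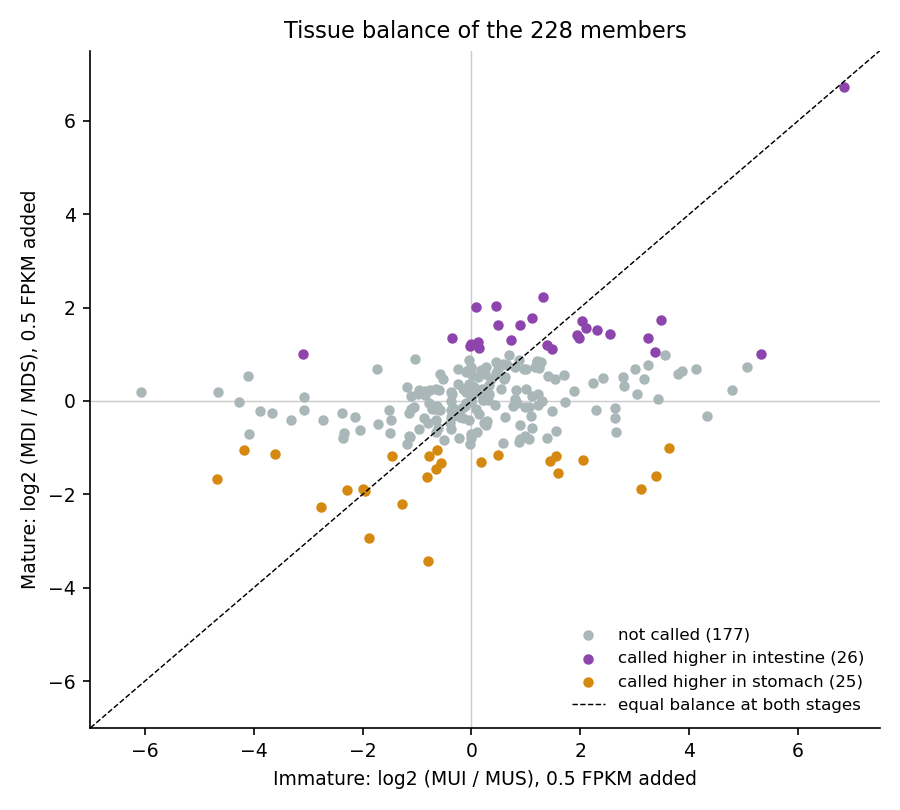
Log2 ratio of intestine to stomach of the 228 members in immature SA (x axis) and mature SA (y axis), from means of 3 libraries with 0.5 FPKM added. Colours mark the 26 members higher in the mature intestine and the 25 higher in the mature stomach by limma. Members spread more along the x axis (SD 1.87) than along the y axis (SD 0.98), where the floor of 20 FPKM in both tissues limits the spread.

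The component names gave no second sequence with the same ending for any member named by a component and c number. Up to the c number, each of the 54265 names occurred once with a given ending, so the 222 members named in this way have 222 different names. By the comp number alone there were 221, because comp66640_c3_seq2_1 and comp66640_c6_seq1_1, named after their values were seen, share it. Their mature libraries gave 40.4 to 51.3 and 57.5 to 66.7 FPKM in MDI and 37.8 to 41.8 and 34.3 to 52.2 FPKM in MDS. In immature SA, both were above 4 FPKM in each library of MUI, while in MUS the former had 7.51 to 9.62 FPKM and the latter at most 0.716 FPKM. For 71 members, the same component name was also used with the other ending. Of these 71 unigenes of the other ending, 0 were at least 4-fold higher in mature SA in both tissues. At least 2-fold lower in both were 19. The shares of all unigenes of an ending with such ratios were not computed, so neither count can be read as particular to the members. An average level of 5 FPKM or more was reached by only 17 of the 71, so the added 0.5 FPKM weighs on many of the ratios. The median ratio of mature to immature SA over the 71 was 0.454 in the intestine and 0.552 in the stomach. Unigenes ending in _2 were lower at maturity in their median as a class. Whether equal names with different endings mark related sequences was not tested.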

How the data were processed

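RNA-Seq had been run on both tissues at both stages, and the 12 libraries of the MF were used. The authors assembled clean reads into 1 unigene set per form with Trinity and deposited 1 FPKM value per unigene and library. How reads were aligned and by which program FPKM was computed is not stated in the sources used here. Members were found from means of 3 libraries. Tissues of mature SA were compared with limma 3.58.1 in R 4.3.3 on log2(FPKM + 0.5), 2-sided, with an intensity trend and no covariate, for unigenes whose mean over the 6 libraries reached 0.5 FPKM, and p-values were adjusted over all of them. Fold changes on this scale understate those of low values. The adjusted p-values measure only the spread between libraries, which may be technical. Tissues of immature SA were compared by size, because most of their values were low. Values below 0.001 FPKM are not whole reads, so the depth behind a low value is unknown. Alternatives were other pseudocounts, filters, scalings, a replicate block and leaving out each library. Summaries used Python 3.11.15.

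Members, lists and tests were chosen with earlier results of these data known. Unigenes named were the 5 with the highest level, the 5 with the largest smaller ratio, the 5 most weighted to each tissue without overlap, the 3 most equal, those at the edge of the rule and components (the ID up to its c number) with several members, of which there were 0. Other unigenes are marked as named after their values were seen. Lists of named genes could not be applied.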

Additional observations from a re-analysis of the deposited data

Results flagged for a closer look

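In 4 members given by name, all libraries of 1 tissue lay above all libraries of the other tissue in mature SA. In immature SA, the order of the tissues was exchanged, again without overlap. The difference between the stages was not tested. In comp64309_c3_seq1_1, the log2 ratio of intestine to stomach was -1.60 in mature SA and 3.39 in immature SA, a change of -4.99. In comp42628_c0_seq1_2, it was -1.17 and 1.55, a change of -2.71, where MUS was below the added 0.5 FPKM, which weighs on the immature value. In comp31152_c0_seq1_1, it was 0.18 and -6.08, a change of 6.26, where the immature value is set by the added 0.5 FPKM. In comp51854_c0_seq1_1, it was 0.25 in mature SA and -0.65 in immature SA, a change of 0.90, with 30.9 to 36.6 FPKM in MDI, 29.1 to 29.3 FPKM in MDS, 2.57 to 5.92 FPKM in MUI and 6.65 to 7.09 FPKM in MUS. Among the 207 members that passed the filter at both stages, 30 (14.5%) had such an exchange of order. The share was 7.05% of all unigenes that passed at both stages. It was 16% of the other unigenes with at least 20 FPKM in both mature groups, and 22.6% of those of them that ended in _1. The exchange is thus not particular to the members. Of the 30, 19 had the stomach higher in mature SA and 7 had a difference of at least 2-fold at both stages. Shares of other unigenes for these 2 counts were not computed.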

How the results depend on the processing

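Leaving out 1 library gave 222 to 234 members, and the pseudocounts and scalings gave 191 to 239. Without unigenes that have values between 0 and 0.001 FPKM, an alternative chosen after seeing the data, 173 members were left, of which 94.8% ended in _1. In mature SA, members called by limma numbered 24 to 27 in the intestine and 23 to 26 in the stomach without 1 library. Median of ratios scaling gave 13 and 46, because it lowers the intestine relative to the stomach. Over all unigenes, a mean of at least 5 FPKM gave 3038 higher in the intestine and 1207 in the stomach from fewer unigenes tested (14201), and quantile normalization gave 5994 in the stomach, against 9041 and 3560. In immature SA, quantile normalization gave 60 members higher in the stomach, against 37. With the replicate number as a block, the mature counts were 26 and 25 members, and 8777 and 3455 of all unigenes. Same-numbered libraries of MDI and MDS had correlations of -0.001 to 0.034 in their deviations from the group means, and those of MUI and MUS 0.002 to 0.004. Because the spread between libraries may be technical, these correlations cannot show whether same-numbered libraries came from the same animal. All 3 libraries of MUI and 1 of 3 of MDI correlated best with their own number.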

Other observations

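With the stages exchanged, 127 unigenes of the MF had at least 20 FPKM in MUI and MUS and were at least 4-fold lower in mature SA in both tissues. Of these, 126 had IDs ending in _2 and 0 had IDs ending in _1. They took 2.25% to 2.27% of the summed FPKM in MUI and 3.69% to 3.72% in MUS. Their median log2 ratio of intestine to stomach was 0.20 in immature SA, and 90 of the 127 (70.9%) were within 2-fold. In the DF, the exchanged rule was met by 13 unigenes.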
